A study of Mus musculus with 24 samples.

Results

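The acute phase protein genes Orm1, Orm2, Orm3, Saa1, Saa2, Saa3, Hp, Lcn2, Crp and Apcs were followed in mouse liver after silencing of Keap1. They were taken as a list of names, together with every probe set that the platform annotation assigns to a single one of them, which gave 10 genes and 11 probe sets (2 for Saa1, 1 for each other gene) out of 18193 genes and 45037 probe sets tested. The question was whether each Keap1 siRNA changed these genes, and whether Orm3 followed the others.

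Livers of 24 male C57BL6/J mice, 8 in each group, were profiled on Affymetrix mouse arrays that hold probe sets for most genes, 1 array for the RNA of 1 mouse. The groups were siKeap1-1 and siKeap1-2, which are different siRNAs against Keap1, and siControl, a scrambled siRNA. All 3 groups, siControl included, were 8 weeks old at the start, ate a high-fat western diet with 6% sucrose in the drinking water, and received 1 mg siRNA per kg in lipid particles through the tail vein every week for 7 weeks. These particles deliver mainly to hepatocytes, which makes this a model of silencing in that cell type above all. The methods name fed and fasted mice within every group, but the sample labels do not tell them apart, so any effect of feeding adds to the spread inside a group.

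The values are log2 signals from RMA (robust multi-array average), and a difference of 1 is a change of 2-fold. Array medians lay between 5.84 and 5.96. Keap1, which encodes the adaptor that marks the transcription factor Nrf2 for degradation, averaged 7.50 ± 0.22 with siKeap1-1, 8.26 ± 0.21 with siKeap1-2 and 9.63 ± 0.27 with siControl (SD, n = 8 each), so the targeted gene matched the labels with both siRNAs. Nqo1, a classic Nrf2 target, was higher by 2.22 with siKeap1-1 and by 1.91 with siKeap1-2 (adjusted p = 8.78e-14 and 3.01e-12 from limma). The hepatocyte marker list (7 genes measured) had a mean signal of 14.04 to 14.25 over the arrays, and none of its genes passed the test in limma with either siRNA. An unadjusted p under 0.05 was seen for 2 with siKeap1-1 and 1 with siKeap1-2, beside 24.5% and 21.9% of all genes. A manufacturer's control for 18S ribosomal RNA was higher with both siRNAs, by 1.23 and by 1.18 over all mice, but not for every replicate number. Numbers 1 to 3 lay at 10.17 to 10.44 in siKeap1-1 mice, 10.82 to 11.12 in siKeap1-2 mice and 10.34 to 10.77 in controls, and numbers 4 to 8 at 11.17 to 11.43, 10.45 to 10.96 and 8.86 to 9.54 in the same order. The results below were also computed with it in the fit.

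The acute phase response is the rapid change in the plasma proteins made by the liver during infection or injury. Interleukin-6, interleukin-1 and glucocorticoids act on hepatocytes through STAT3, NF-kappaB, C/EBP factors and the glucocorticoid receptor, and the genes of positive acute phase proteins rise together. In the mouse the serum amyloid A proteins and serum amyloid P are the major ones, whereas C-reactive protein, the leading marker in humans, responds weakly. The Orm genes encode orosomucoids (alpha-1-acid glycoproteins), which are secreted lipocalins that bind drugs and steroids, and Lcn2 encodes a related lipocalin that binds bacterial siderophores.

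Upstream sequence of these genes is shown here because Orm3 and Orm2 are neighbours with similar promoters, while only Orm3 passed the test in the comparisons that follow. Over the 300-base promoters, Orm3 and Orm2 were identical at 86.6% of aligned positions. RefSeq places Orm1, the predicted gene Gm11212, Orm3, Orm2 and Akna in this order on chromosome 4. Promoters were found in the RefSeq table for 8 of the 10 genes and not for Orm1 and Hp. The windows of Orm3 (chr4:63355908-63356068) and Orm2 (chr4:63362199-63362359), both on the plus strand of GRCm38.p6 and running between positions -250 and -90 from the start site, were identical at 88.9% of aligned positions. Capitals mark matches to TTGCNNAA, a core of C/EBP sites, and in Orm2 also AGAACA, the reverse complement of TGTTCT, the core of glucocorticoid receptor sites.
Orm3: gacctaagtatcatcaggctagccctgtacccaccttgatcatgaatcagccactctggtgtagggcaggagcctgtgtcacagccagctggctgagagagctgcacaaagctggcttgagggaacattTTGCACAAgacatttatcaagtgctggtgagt
Orm2: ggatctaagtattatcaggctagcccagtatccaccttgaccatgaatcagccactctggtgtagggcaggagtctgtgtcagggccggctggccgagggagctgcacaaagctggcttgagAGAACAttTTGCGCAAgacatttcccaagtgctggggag

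The same C/EBP core lay in the 300-base promoters of Saa1, Saa2, Saa3 and Lcn2, shown with 10 bases on either side to compare the flanks of members that moved together between mice. Their positions are chr7:46743145-46743172 (minus strand), chr7:46751640-46751667 (plus), chr7:46715758-46715785 (minus) and chr2:32387938-32387965 (minus), all in GRCm38.p6.
Saa1: tgtgctcccaTTGCACAAtgagggagaa
Saa2: tgtgctcccaTTGCACAAtgagggaaaa
Saa3: gtaagtgggaTTATGCAAgatcaaacag
Lcn2: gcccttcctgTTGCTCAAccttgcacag

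Both strands were searched for every motif, and the Saa3 match is to the reverse complement. TTGCNNAA was in 6 of the 8 promoters, against 10.8% of all 32851 promoters of this length. TGTTCT was in those of Crp, Apcs and Orm2, against 19% of all promoters, and was not found in that of Orm3. TGACNNNGC, the core of the antioxidant response element that Nrf2 binds, was in none of the 8 promoters, against 12.4% of all. TTCNNNGAA, a STAT core, was in that of Apcs, against 8.3% of all. Any overlap between the motifs was left as found, and a match or its absence in these windows is a description of the letters only.

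Orm3 was the only one of the 10 genes past an adjusted p of 0.05 (limma, Benjamini-Hochberg over all probe sets), and it was higher with both siRNAs. The count was 1 of 10 with siKeap1-1, against 9.49% of all genes called in either direction and 4.82% called higher. With siKeap1-2 it was 1 of 10, against 6.60% of all genes called and 2.85% called higher. A share of 1 in 10 is near these backgrounds, so the count says nothing about the list as a group. The median log2 fold change of the 10 genes was -0.06 with siKeap1-1 and 0.10 with siKeap1-2, beside 0.01 and -0.01 over all genes. Both comparisons use the same siControl mice.

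**Figure D1:**
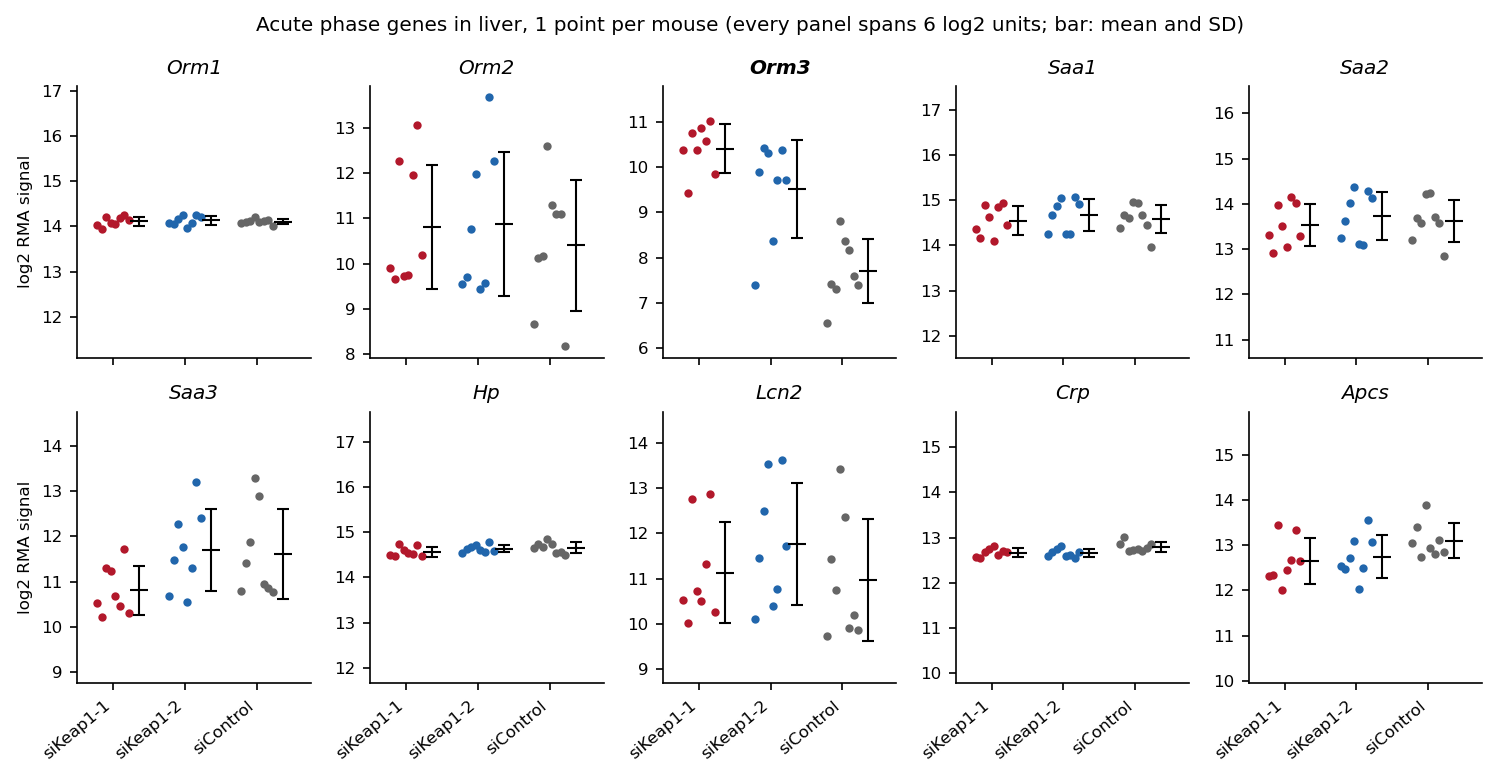
Log2 RMA signal of the 10 acute phase genes in each mouse (points, 8 per group, siKeap1-1, siKeap1-2 and siControl from left to right), with the mean and SD as bars. Each panel spans 6 log2 units, and Saa1 is shown by its brighter probe set. Orm3 stood higher with both siRNAs, Orm2 and Lcn2 were spread over several units within every group, and Orm1, Hp and Crp varied little.

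Among the orosomucoid genes, Orm3 had a lowest, median and highest signal of 9.43, 10.48 and 11.03 in siKeap1-1 mice, 7.40, 9.81 and 10.42 in siKeap1-2 mice, against 6.56, 7.51 and 8.82 with siControl. All 8 siKeap1-1 mice lay above every control, a separation upwards that 1.12% of all genes showed. With siKeap1-2 this held for 6 of 8 mice (full separation upwards was seen for 0.940% of genes), because replicates 1 (7.40) and 5 (8.38) lay within the control range. The mean with siKeap1-1 was 10.41 ± 0.53, against 7.71 ± 0.71 with siControl (SD, n = 8 each), a log2 fold change of 2.70 with a standard error of 0.37 and a 95% interval of 1.93 to 3.47 (limma adjusted p = 4e-05). That is a rise of 6.50-fold (3.80 to 11.10), the 12th largest of all genes in this comparison. The mean with siKeap1-2 was 9.53 ± 1.08, a log2 fold change of 1.82 (standard error 0.37, interval 1.05 to 2.59, limma adjusted p = 0.00422) or 3.53-fold (2.06 to 6.02), and the 26th largest. An exact permutation test over all splits of 8 mice against 8 gave a two-sided p of 0.000155 with siKeap1-1, the smallest possible, and 0.00326 with siKeap1-2. With the 18S probe set in the fit the value was still 2.08 with siKeap1-2, but the adjusted p was 0.0613. With replicate numbers 1 to 3 alone, at which the 18S control also splits siKeap1-1 and siControl in opposite directions, the difference in Orm3 was 3.09 and 2.14 (3 mice per group), neither past the threshold (adjusted p = 0.0712 and 0.474 from limma).

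Orm2, the gene beside Orm3, did not pass the test. Its lowest, median and highest signals were 9.66, 10.05 and 13.06 with siKeap1-1, 9.44, 10.23 and 13.68 with siKeap1-2, and 8.17, 10.63 and 12.61 with siControl. The groups overlapped, although siControl replicates 1 (8.66) and 8 (8.17) lay below every siRNA mouse. The log2 fold change was 0.41 with siKeap1-1 (standard error 0.68, interval up to 1.82) and 0.47 with siKeap1-2 (interval -0.94 to 1.88), and a change of 2-fold in the mean was within these limits. Against siControl replicates 1 to 3 alone, chosen after seeing the data, the values were 1.16 and 1.22, again not past the test (adjusted p = 0.539 and 0.636 from limma). Orm1, by contrast, was nearly constant. It lay at 13.94 to 14.24 in siKeap1-1 mice, at 13.97 to 14.26 in siKeap1-2 mice and at 14.00 to 14.21 in controls. Its log2 fold changes of 0.01 (interval -0.11 to 0.12) and 0.03 (-0.09 to 0.14) leave room for a small change of the signal only. That signal was near the upper end of the array scale (highest 15.21), so these intervals do not limit the change of the transcript. The 3 genes are close paralogs, and whether the probes of one also bind transcripts of another was not tested.

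The serum amyloid A genes encode apolipoproteins that join high density lipoprotein particles, Saa1 and Saa2 being products of the liver and Saa3 being made also by macrophages and fat. Saa1, by its brighter probe set, had a lowest, median and highest signal of 14.10, 14.54 and 14.93 in siKeap1-1 mice, 14.26, 14.77 and 15.07 in siKeap1-2 mice and 13.97, 14.63 and 14.95 in controls. The log2 fold changes were -0.03 (interval -0.36 to 0.29) and 0.09 (-0.24 to 0.42), and its second probe set gave 0.01 and 0.15. Saa2 gave -0.10 and 0.11 (adjusted p = 0.855 and 0.842 from limma). The brighter Saa1 probe set carries a transcript accession that RefSeq gives to Saa2, so the assignment between these near-identical genes is uncertain. The Saa2 probe set is annotated to that same transcript. In the correlations below, Saa1 and Saa2 may therefore be readings of a single transcript.

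Saa3 had the lowest point estimate of the 10 genes with siKeap1-1. Its signals were 10.22, 10.60 and 11.73 (lowest, median and highest) with siKeap1-1, 10.54, 11.62 and 13.19 with siKeap1-2, and 10.76, 11.18 and 13.28 with siControl. Every siKeap1-1 mouse was below the highest 3 controls, but the ranges overlapped. The log2 fold change of -0.79 with siKeap1-1 (interval -1.59 to 0.01) did not pass the test (adjusted p = 0.22 from limma), and the value with siKeap1-2 was 0.10 (interval -0.69 to 0.90). Markers of Kupffer cells and macrophages, which can also express Saa3, had a mean signal of 8.67 to 9.57 with siKeap1-1, of 8.74 to 9.84 with siKeap1-2 and of 9.06 to 9.77 with siControl. Of the 11 measured, Vsig4 and Timd4 were lower with siKeap1-1 (-0.60 and -1.52, limma adjusted p = 0.018 and 0.0015), where 9.49% of all genes were called. With siKeap1-2, where 6.60% were called, Timd4 was lower (-1.16, limma adjusted p = 0.0183) and Marco higher (1.49, limma adjusted p = 0.0122). With the 18S control in the fit, only Timd4 was still called, and with siKeap1-1 alone. In bulk liver, fewer cells of a type and less RNA per cell cannot be told apart, and the part of these cells in the values of Saa3 was not tested.

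Hp encodes haptoglobin, which binds free haemoglobin. It lay at 14.47 to 14.75 in siKeap1-1 mice, at 14.54 to 14.78 in siKeap1-2 mice and at 14.49 to 14.85 in controls, with log2 fold changes of -0.08 and -0.02. Orm1, Saa1 and Hp were near the upper end of the array scale, whose highest signal was 15.21, and whether such bright probe sets still respond in proportion was not tested.

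Lcn2 showed a wide spread in all groups. Its lowest, median and highest signals were 10.03, 10.62 and 12.88 with siKeap1-1, 10.11, 11.58 and 13.63 with siKeap1-2 and 9.74, 10.47 and 13.43 with siControl. The log2 fold change was 0.17 with siKeap1-1 (interval -1.05 to 1.38) and 0.80 with siKeap1-2 (-0.41 to 2.02), which did not pass the test (adjusted p = 0.905 and 0.483 from limma). Neutrophils also make Lcn2. Of the 11 genes measured in their list, none was called in limma. For each siRNA 1 had an unadjusted p under 0.05, beside 24.5% and 21.9% of all genes. The list had a mean signal of 5.24 to 6.29 with siKeap1-1, of 5.36 to 6.18 with siKeap1-2 and of 5.27 to 6.27 with siControl. That list was dim, near the array medians of 5.84 to 5.96. Its deviations from the group means had an r of 0.65 with those of Lcn2 and of 0.38 with those of Orm3 over the 24 mice, without a test. For Orm3, 0.38 is below the 95th percentile of all single genes (0.47). Over all the cell type lists, r with Orm3 ran from -0.45 (stellate cells) to this value. The part of neutrophils in either gene was not tested.

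The pentraxin genes Crp and Apcs, for C-reactive protein and serum amyloid P, had point estimates below 0 with both siRNAs. Crp averaged 12.67 ± 0.09 with siKeap1-1 and 12.66 ± 0.09 with siKeap1-2, against 12.80 ± 0.10 with siControl (SD, n = 8 each). The differences of -0.13 and -0.14 had an unadjusted p of 0.0285 and 0.0219 but an adjusted p of 0.156 and 0.155 from limma. Apcs averaged 12.65 ± 0.51 and 12.75 ± 0.48, against 13.09 ± 0.38 with siControl, with log2 fold changes of -0.44 (interval -0.88 to -0.00, adjusted p = 0.217) and -0.35 (-0.79 to 0.09, adjusted p = 0.381). At an unadjusted p under 0.05, where 24.5% of all genes passed with siKeap1-1 and 21.9% with siKeap1-2, the members were Orm3, Crp and Apcs with siKeap1-1 and Orm3 and Crp with siKeap1-2.

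**Figure D2:**
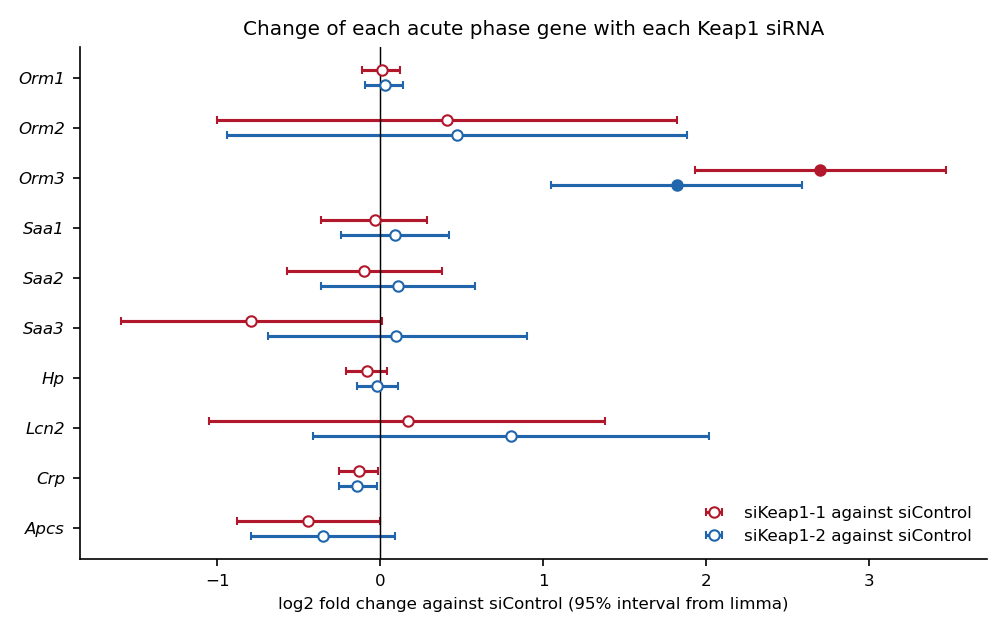
Log2 fold change of each gene against siControl for siKeap1-1 (red, upper of each pair) and siKeap1-2 (blue), with the 95% interval from limma. Filled points passed an adjusted p of 0.05. Orm3 stood at 2.70 and 1.82, and the other genes between -0.79 and 0.80.

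Between the siRNAs, no member passed an adjusted p of 0.05 (limma), where 0.242% of all genes did. The log2 difference, siKeap1-1 minus siKeap1-2, was 0.88 for Orm3 (interval 0.11 to 1.66, adjusted p = 0.458), and 4 of 8 siKeap1-1 mice lay above every siKeap1-2 mouse. For Saa3 it was -0.90 (unadjusted p = 0.0291, adjusted p = 0.466). These were the 2 members with an unadjusted p under 0.05, a level that 9.29% of all genes reached, and Keap1 itself was lower with siKeap1-1 than with siKeap1-2 by 0.76 (adjusted p = 0.0022).

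Whether Orm3 rose more than the others was tested directly, by subtracting the signal of each other gene from that of Orm3 in the same mouse and comparing this difference between groups by exact permutation (two-sided, 18 tests, Benjamini-Hochberg). With siKeap1-1 the difference grew by 2.29 against Orm2 at the least (exact permutation p adjusted 0.00186) and by 3.49 against Saa3 at the most (exact permutation p adjusted 0.0004). For 7 of the 9 genes the siKeap1-1 and siControl mice did not overlap, the exceptions being Orm2 and Lcn2. The same held for 94.8% of all genes when each was subtracted from Orm3, and for genes that hardly varied, such as Orm1, Hp and Crp, the difference mostly restates the rise of Orm3 itself. With siKeap1-2 it grew by 1.02 against Lcn2 (exact permutation p adjusted 0.0365), by 1.35 against Orm2 (0.0344) and by 1.71 to 2.17 against Saa2, Saa3, Saa1, Orm1, Hp, Crp and Apcs, with overlap of the groups for all 9 genes. All 18 passed the adjusted threshold. The share of all genes that would pass against Orm3 is not given here, so this count reflects the rise of Orm3 and shows nothing particular to these genes. With replicate numbers 4 to 8 alone (5 mice per group) the siKeap1-2 differences against Orm2 and Lcn2 were 1.09 and 0.77 and no longer passed (exact permutation p adjusted 0.218 and 0.302), and the test against Orm2 was also lost when the 18S control entered as a covariate. Since the 9 tests of an siRNA share Orm3, they are not independent.

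From mouse to mouse within a group, however, Orm3 did move with most of the others. After the group means were removed, Pearson's r of Orm3 over the 24 mice was 0.76 with Lcn2 (Spearman's rho 0.79), 0.74 with Saa3 (0.78), 0.70 with Saa2 (0.71), 0.67 with Saa1 (0.71), 0.66 with Orm2 (0.70), 0.63 with Orm1 (0.61), 0.52 with Hp (0.54) and 0.50 with Apcs (0.51). The adjusted p of r lay between 0.000315 and 0.0179 for these 8 genes (100000 permutations within groups, two-sided, 9 pairs), and that of rho between 0.00054 and 0.0148. Crp was the exception, with r = 0.17 and rho = 0.13 (permutation p = 0.44 and 0.561, the same after adjustment). Without siKeap1-2 replicates 1 and 5, the mice farthest from the median of Orm3 after removal of the group means, r was 0.74 with Lcn2, 0.69 with Saa3 and 0.68 with Saa2, and between 0.45 and 0.67 with Orm2, Saa1, Orm1, Hp and Apcs. The relation with Apcs missed the threshold without siControl replicate 4 (r = 0.43, permutation p adjusted 0.0667). Fed and fasted mice could not be told apart, so the shuffles within groups mixed them. A response to feeding shared by 2 genes would enter their r and its p, and how far it did was not tested.

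**Figure D3:**
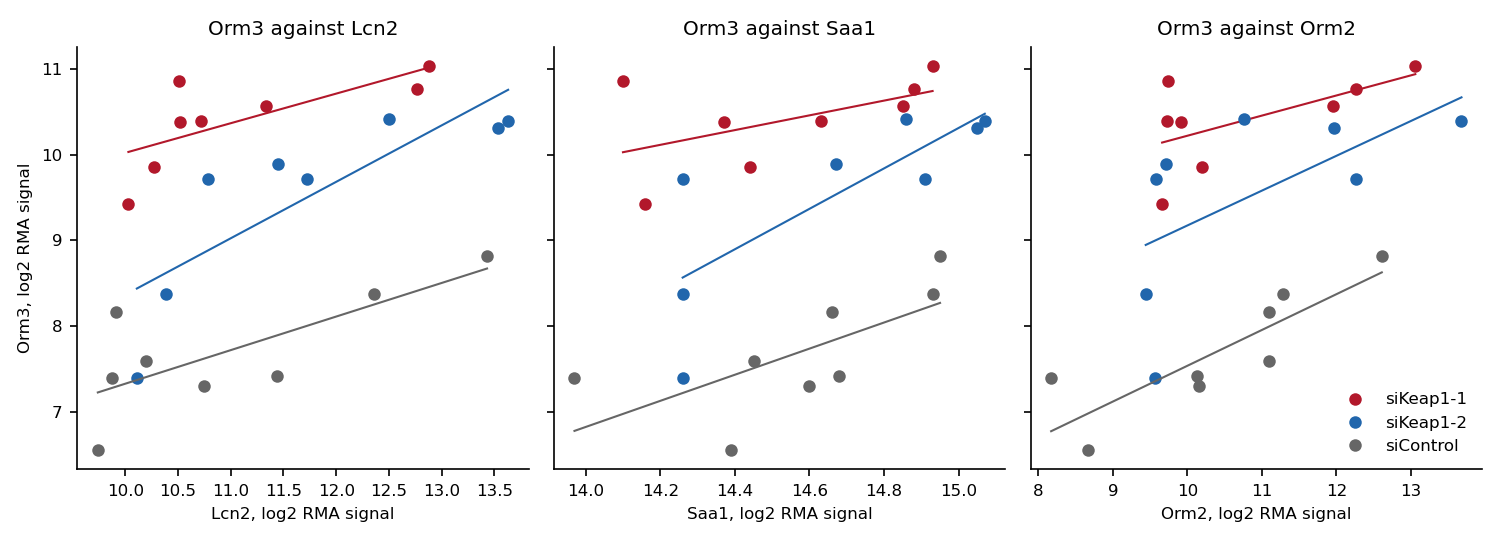
Orm3 against Lcn2, Saa1 and Orm2, each as log2 RMA signal, 1 point per mouse, with a least squares line within each group (siKeap1-1 red, siKeap1-2 blue, siControl grey). The lines rise in every group, with slopes for Lcn2 of 0.34, 0.66 and 0.39 in this order, and the lines of the siRNA groups lie above that of the controls in all 3 panels.

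The sign was the same in each group. With Lcn2 r was 0.72 within siKeap1-1, 0.82 within siKeap1-2 and 0.74 within siControl, and with Orm2 it was 0.60, 0.60 and 0.85. For the 8 genes other than Crp the values within a group of 8 mice ran from 0.40 (Hp within siControl) to 0.85. Crp gave 0.61 within siKeap1-1, 0.49 within siKeap1-2 and -0.50 within siControl. With replicate numbers 1 to 3 alone r was 0.32 to 0.87 for the 8 genes, and with numbers 4 to 8 alone it was 0.69 to 0.81. Several genes had their highest or lowest signal in the same mouse. In siKeap1-1, replicate 7 had the highest signal for 6 of the 10 genes, Orm3 among them, and replicate 2 the lowest for 7, again with Orm3. In siKeap1-2, replicate 7 was highest for 7 genes and replicate 5 lowest for 5, whereas Orm3 was highest in replicate 3 and lowest in replicate 1. In siControl, replicate 4 was highest for 8 genes, Orm3 among them, and replicate 8 lowest for 6, whereas Orm3 was lowest in replicate 1.

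**Figure D4:**
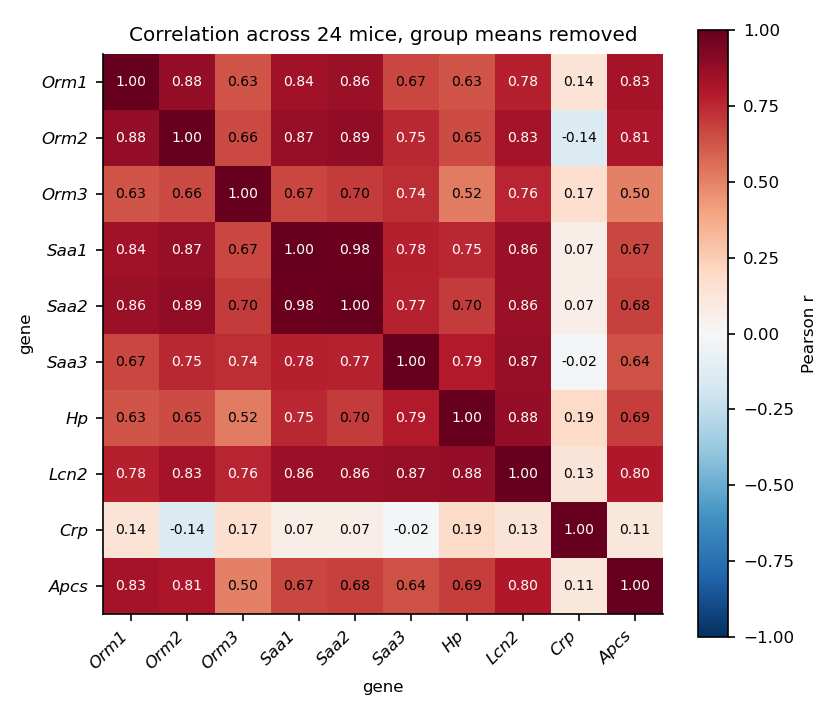
Pearson correlation between the 10 genes over 24 mice after removal of the group means (colour and number). All pairs without Crp were between 0.50 and 0.98, those of Orm3 between 0.50 and 0.76, and the row of Crp ran from -0.14 to 0.19.

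Among themselves the 8 genes other than Orm3 and Crp had a median r of 0.79 over 28 pairs (0.63 to 0.98), and Orm3 had a median of 0.66 with them (0.50 to 0.76). The highest value, 0.98, was that of Saa1 with Saa2, whose probe sets may read the same transcript. All these pairs share mice and arrays, and whether the medians differ was not tested. Set against all 18192 other genes, whose r with Orm3 had a median of 0.07, a 95th percentile of 0.47 and a 99th of 0.61, Lcn2 ranked 11th and Saa3 19th. Saa2, Saa1, Orm2 and Orm1 ranked 39th to 144th, Hp 543rd and Apcs 651st, whereas 35.5% of all genes had an r at least as high as Crp.

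**Figure D5:**
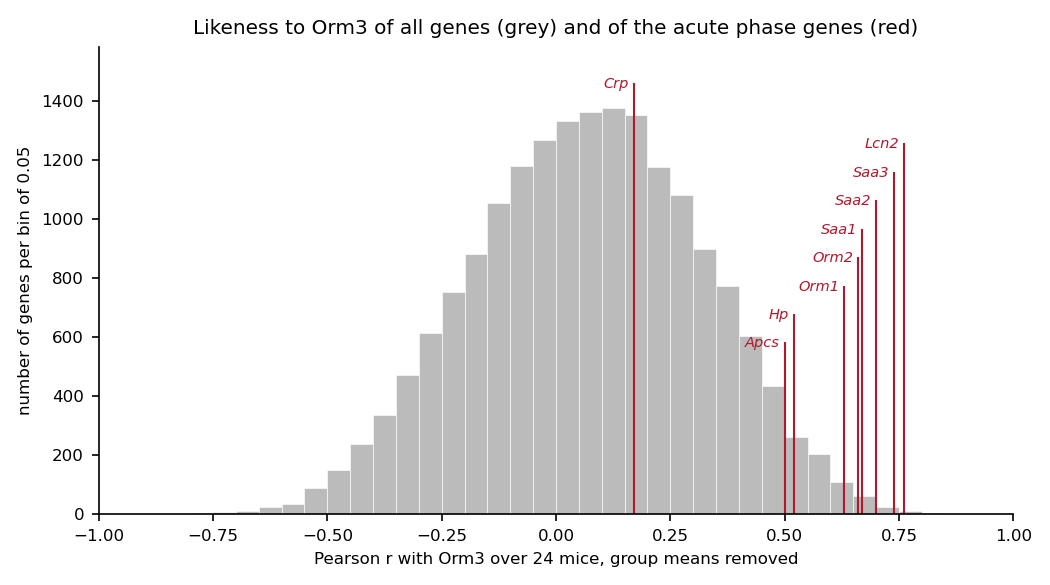
Number of genes by their Pearson r with Orm3 over 24 mice after removal of the group means (grey bars of width 0.05), with the 9 other acute phase genes as red lines, whose heights only separate the names. Lcn2 at 0.76 and 5 others lay above the 99th percentile of 0.61, Hp and Apcs above the 95th of 0.47, and Crp at 0.17 in the middle.

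The rise of Orm3 was also fitted at equal signal of another member, an alternative chosen after seeing the data. With Orm2 as a covariate Orm3 was higher by 2.55 with siKeap1-1 and by 1.65 with siKeap1-2, with Saa1 by 2.76 and 1.67, and with Lcn2 by 2.62 and 1.43, and all 6 values passed an adjusted p of 0.05 (limma). Apcs passed too when Orm2 or Lcn2 was a covariate, at -0.54 or -0.49 with siKeap1-1 and at -0.47 or -0.58 with siKeap1-2, and Saa3 passed with siKeap1-1 at -0.96 or -0.89. Without a covariate neither gene was called. The share of all genes called in these covariate fits is not given here, so the calls show nothing particular to Apcs or Saa3.

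No relation of Orm3 with Keap1 or Nqo1 was detected between mice of a group. Its r was -0.29 with Keap1 (rho -0.24, permutation p = 0.178), -0.11 with Nqo1 (rho 0.02, p = 0.649, permutation test) and -0.16 with the 18S probe set (rho -0.15, permutation p = 0.426), with an adjusted p of 0.534 to 0.649 over these 3. Within single groups the r with Nqo1 was -0.28 in siKeap1-1, -0.69 in siKeap1-2 and 0.72 in siControl, so it had no common sign. With Keap1 it was 0.32, -0.46 and -0.52 in the same order, again without a common sign. Without siKeap1-2 replicates 1 and 5, r was -0.15 with Keap1, 0.34 with Nqo1 and -0.24 with the 18S probe set.

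The genes most like Orm3 between mice, among 11480 genes with a mean signal of at least 6, were Npr2 (r = 0.86), which encodes a receptor for C-type natriuretic peptide, Ldhd (0.84) for a mitochondrial D-lactate dehydrogenase, Slc1a2 (0.82) for a glutamate transporter, Slc16a13 (0.81) for a monocarboxylate transporter, Smpd2 (0.79) for a sphingomyelinase and Gbf1 (0.78) for a Golgi exchange factor. Their changes with the siRNAs were small beside that of Orm3. Ldhd was higher by 0.27 with siKeap1-1 (adjusted p = 0.017), Smpd2 was higher by 0.34 with siKeap1-2 (adjusted p = 0.0225), and Npr2 had log2 fold changes of -0.07 and -0.35 that did not pass (adjusted p from limma 0.836 and 0.15). The lowest values were those of Cox7a2 (r = -0.75), Plagl1 and Jazf1 (both -0.74). These genes were picked from the whole array by r, so the values carry no test.

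Of 33 further positive acute phase genes measured (fibrinogen chains, complement factors, hemopexin, hepcidin, metallothioneins and others), none passed in limma with siKeap1-1, where 3 had an unadjusted p under 0.05 and 9.49% of all genes were called. With siKeap1-2, where 6.60% of all genes were called, 1 of the 33 was, as Steap4, a metalloreductase, was lower by 0.51 (adjusted p = 0.0498 from limma). The medians of this list were -0.07 and -0.04. Between mice, r with Orm3 was highest for Mbl1 (0.71), a mannose-binding lectin, Cfb (0.63), complement factor B, and Itih3 and Serpina3n (both 0.61), and the median over the 33 genes was 0.32 for Orm3, within the range of the other acute phase genes (0.11 for Crp to 0.46 for Hp, with 0.20 for Saa2, 0.26 for Saa1 and 0.31 for Orm1).

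Of 18 negative acute phase genes measured, whose products fall during inflammation, 1 rose and 3 fell with siKeap1-1, beside 9.49% of all genes called, and 1 fell with siKeap1-2, beside 6.60%. Serpina7, for thyroxine-binding globulin, fell by 0.84 with siKeap1-1 and by 1.09 with siKeap1-2 (adjusted p = 0.0454 and 0.014 from limma). Serpina6, for corticosteroid-binding globulin, fell by 0.31 with siKeap1-1 (adjusted p = 0.0484), and Fetub, for fetuin B, rose by 0.42 (adjusted p = 0.0128). None of Serpina7, Serpina6 and Fetub was called with the 18S control in the fit. The medians were -0.09 and -0.05. Between mice, 3 of these 18 genes had an r over 0.5 with Orm3, namely Proc (0.64), F12 (0.58) and Igfals (0.51), which encode protein C, coagulation factor XII and a carrier subunit of insulin-like growth factors, and Apoa4 had an r of -0.51. Crp and Hp had 2 genes over 0.5 each, and the other 7 acute phase genes 0. Over all genes, the 95th percentile of r with Orm3 was 0.47. No such background is given for the other acute phase genes, so the counts cannot be compared between them.

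Of 36 cytokine receptors and regulators measured, 1 rose and 4 fell with siKeap1-1 and 1 rose with siKeap1-2, again beside 9.49% and 6.60% of all genes called, and these counts are read as nothing particular to the list. Irak1, a kinase of interleukin-1 signalling, rose by 0.44 and 0.46 (adjusted p = 0.000107 and 0.000145 from limma). With the 18S control in the fit, Irak1 was called with siKeap1-1 only. Of all lists, those above and below, that fit left Apom, Cd4, Cebpa, Irak1, Sox9 and Timd4 called with siKeap1-1 and Sox9 with siKeap1-2. Bcl3 and Nfkbiz, both nuclear partners of NF-kappaB, fell by 0.75 and by 0.48 with siKeap1-1 (adjusted p = 0.013 and 0.0404), and had log2 fold changes of -0.54 and -0.47 with siKeap1-2 (adjusted p = 0.0923 and 0.0534). None of the 18 cytokines and chemokines measured passed in limma with either siRNA (3 and 2 with an unadjusted p under 0.05, beside 24.5% and 21.9% of all genes). Of 14 glucocorticoid responsive genes, only Tdo2, for tryptophan dioxygenase, was called, beside 9.49% and 6.60% of all genes. It rose by 0.22 and 0.18 (adjusted p = 0.0042 and 0.024 from limma). Among the markers of other cells than those given above, 1 of 5 cholangiocyte genes, Sox9, rose with both siRNAs (0.87 and 0.96), beside 9.49% and 6.60% of all genes called. The median of that list was 0.13 with siKeap1-1 and -0.33 with siKeap1-2. Of 4 adipocyte genes only Retn passed with siKeap1-1 (5.23 against 4.90, limma adjusted p = 0.0484). Of 7 T and B cell genes only Cd4 passed with siKeap1-1 (5.66 against 6.21, limma adjusted p = 0.00305). Of 6 endothelial genes only Cdh5 passed with siKeap1-2 (5.97 against 6.29, limma adjusted p = 0.0401). These signals lay near or below the array medians of 5.84 to 5.96, and no change of a cell type is read from single dim markers. None of the 6 stellate cell markers passed in limma (2 with an unadjusted p under 0.05 with siKeap1-1 and 0 with siKeap1-2, beside 24.5% and 21.9% of all genes).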

How the data were processed

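Liver RNA of 24 mice was measured on Affymetrix arrays, 1 array per mouse. The deposited log2 values were made by the authors with RMA (version not given in the sources used here) and were used as given. Of 45101 probe sets, 64 controls were left out. The platform annotation names 1 gene for 34945 probe sets, several for 932 and none for 9160, and each gene was represented by its probe set with the highest mean. Groups were taken from the sample labels. A single limma 3.58.1 fit (R 4.3.3, lmFit and eBayes) gave the 3 contrasts, with Benjamini-Hochberg adjustment over 45037 probe sets and a threshold of 0.05. Permutation tests used Python 3.11.15 and scipy 1.17.1. The procedure was tested on simulated data.

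Acute phase genes and gene lists were chosen with earlier results of these data known. Genes named are the acute phase genes, Keap1, Nqo1, the 18S control, up to 3 called genes per list with the largest change, and the 6 genes with the highest and the 3 with the lowest r to Orm3. Promoters are 300-base RefSeq windows of GRCm38.p6. Alternatives changed the normalization, the eBayes moderation, the weighting of arrays, the arrays and dim probe sets included, the covariates and the replicate numbers used, and left out each mouse in turn. No 2 arrays were copies (smallest SD of their difference 0.264). The number of arrays limits the precision.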

Additional observations from a re-analysis of the deposited data

Results flagged for a closer look

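Values that stood apart from their group were sought in 114 groups of 8 mice (38 probe sets of the named genes), of which chance would flag about 1 in 20, and 10 were found. Among the acute phase genes this was Crp in siControl replicate 2, at 13.02 against 12.86 for the next mouse. Steap4 and Bcl3 stood apart in the same mice, with 11.85 and 10.62 in siKeap1-1 replicate 3 and with 12.54 and 11.80 in siControl replicate 4, the control mouse that was also highest for 8 of the 10 acute phase genes. Marco was at 11.17 in siKeap1-1 replicate 8. Of the genes most and least like Orm3, siKeap1-1 replicate 2 was lowest for Slc16a13 (6.42) and Smpd2 (9.80) and highest for Plagl1 (9.37), and siKeap1-2 replicate 1 was lowest for Gbf1 (9.10). These 2 mice also had the lowest Orm3 signal of their groups. Since these genes were picked by their r with Orm3, this follows largely from the choice and is no separate observation. Between the siRNAs, Keap1 differed by -0.76 (siKeap1-1 minus siKeap1-2, limma adjusted p = 0.0022).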

How the results depend on the processing

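The rise of Orm3 lay between 2.33 and 3.31 (siKeap1-1) and between 1.43 and 2.43 (siKeap1-2) over 20 settings other than leaving out a mouse, and passed the adjusted threshold in 19 and 18 of them. With replicate numbers 1 to 3 alone it was 3.09 and 2.14 (adjusted p = 0.0712 and 0.474), and with the 18S control as a covariate 2.08 with siKeap1-2 (0.0613). Acute phase genes called were then 0 with either siRNA for numbers 1 to 3, and 0 with siKeap1-2 for the 18S covariate. They were 3 with siKeap1-1 and 2 with siKeap1-2 when Orm2 or Lcn2 was a covariate, and 1 with either siRNA when Saa1 was. How many of all genes were called in these settings is not given here, so the counts show nothing particular to the acute phase genes. Leaving out each mouse gave 1 called gene throughout with either siRNA and 0 between them, with Orm3 at 2.54 to 2.86 and at 1.65 to 2.12, and Keap1 at -2.19 to -2.07 and at -1.41 to -1.31. The correlations of Orm3 that passed, 8 of 9, were 7 to 8 with each mouse left out, 4 for numbers 1 to 3, 0 within siKeap1-1 alone, 2 within siKeap1-2 alone and 0 within siControl alone, where fewer mice entered. The 18 tests of Orm3 against the other genes gave 16 to 18 in the alternatives. The genes of the other lists that were called, of 169 measured, were 15 with siKeap1-1 and 8 with siKeap1-2, beside 9.49% and 6.60% of all genes. These counts are read as nothing particular to the lists. With siKeap1-1 the called genes were 6 with the 18S covariate, 3 for numbers 1 to 3, 9 for numbers 4 to 8 and 6 with siControl numbers 1 to 3 as the only controls. With siKeap1-2 they were 1, 0, 8 and 1 in these settings, and 14 without dim probe sets or with the first residual component as a covariate. Leaving out each mouse gave 9 (without siControl replicate 8) to 16 with siKeap1-1 and 5 (without siKeap1-2 replicate 2) to 12 with siKeap1-2. Shares of all genes called in these alternatives are not given, so a change over the whole array and a change in the lists cannot be told apart. Where no value shows it, the cause was not tested.

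Replicate numbers were not taken to pair the mice. Mean correlations of same-numbered deviations ran from -0.102 to 0.15, and whether they differ from 0 was not tested. With the number as a block, Orm3 was at 2.70 and 1.82 and no call of an acute phase gene changed. No value that passed the test, with or without the alternative, changed sign. Of 1587 values of single genes, 58 that did not pass had the opposite sign, for example with Lcn2 as a covariate for siKeap1-2 Orm2 at -0.30, Saa1 at -0.09, Saa2 at -0.16 and Saa3 at -0.35, and r of Orm3 with Crp at -0.50 within siControl.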
